A study of Mus musculus with 6 samples.

Results

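Iron enters most cells bound to transferrin, is stored in ferritin and leaves through ferroportin, and the messenger RNAs of this pathway were measured in microglia, which are brain macrophages. The set described here has 8 members, taken by symbol from the deposited gene table, out of 55304 symbols in all. They are Trf and Tfrc (transferrin and its receptor), Slc11a1 (a metal ion transporter of the phagosome), Fth1 and Ftl1 (the heavy and light chains of ferritin), Slc40a1 (ferroportin, the exporter) and Aco1 and Ireb2 (the iron regulatory proteins). All 8 were found in the table and all 8 were tested. There were 3 libraries labelled KO, from C57BL/6 mice with the genotype QKIflfl; Cx3cr1cre-ert2, and 3 labelled WT, from C57BL/6 mice with the genotype QKIfl/fl. Mice of both groups were 4 to 5 weeks old and carried floxed alleles of Qk, which encodes the RNA-binding protein QKI. The groups differed in the Cre, a recombinase fused to a modified estrogen receptor and driven from Cx3cr1, a gene of microglia, other tissue macrophages and monocytes. Such a fusion acts once tamoxifen is given, and no tamoxifen dose or date is in the labels. Microglia were sorted by flow cytometry on CD45 and CD11b, surface proteins that monocytes, neutrophils and border macrophages also carry. Whether each library is a mouse of its own is not in the labels, so the p-values speak of variation among these libraries, which may be technical.

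Cells balance iron mainly after transcription. When iron is scarce, the iron regulatory proteins bind hairpins called iron-responsive elements: in the leader of ferritin and ferroportin messages they block translation, and in the tail of the transferrin receptor message they protect the RNA from decay. When iron is plentiful that binding is lost, so ferritin and ferroportin are made and the receptor message is degraded. Macrophages also take up iron by engulfing cells, and in inflammation they are known to raise ferritin and lower ferroportin, which holds iron inside the cell.

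The hairpins that link the members are shown because they set which messages the iron regulatory proteins can bind. The search used transcripts of GENCODE M21 (GRCm38), on the transcript strand only, for a C, then NNNNN, then CAGTGN, then NNNNN that pairs with the first NNNNN (G with T allowed). The first-numbered GENCODE transcript of each gene was searched, and 4 of the 8 members held a match. Each sequence has 27 bases, written from the 5′ to the 3′ end, with capitals for the unpaired C and the loop:
Fth1, 5′ UTR, plus strand, chr19:9982733-9982759: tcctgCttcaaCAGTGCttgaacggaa
Ftl1, 5′ UTR, minus strand, chr7:45459780-45459806: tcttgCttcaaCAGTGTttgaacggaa
Slc40a1, 5′ UTR, minus strand, chr1:45925466-45925492: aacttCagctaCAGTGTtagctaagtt
Tfrc, 3′ UTR, plus strand, chr16:32631220-32631246: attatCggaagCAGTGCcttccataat
Tfrc, 3′ UTR, plus strand, chr16:32631599-32631625: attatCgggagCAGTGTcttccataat
Tfrc, 3′ UTR, plus strand, chr16:32631664-32631690: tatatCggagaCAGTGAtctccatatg
Tfrc, 3′ UTR, plus strand, chr16:32631711-32631737: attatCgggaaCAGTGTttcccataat
The letters are rare in these positions. Of 21343 tested genes whose named transcript has at least 200 bases, 16 (0.075%) held a match in the first 200. The Tfrc transcript had 4 matches, whereas 2.02% of 3468 transcripts within 20% of its length had any. A match is a description of letters and does not show binding. Those of Trf, Slc11a1, Aco1 and Ireb2 held none.

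The libraries were first checked against their labels. Qk, the targeted gene, was higher in the libraries labelled KO, at 24768 ± 1073 normalised reads against 11632 ± 800 in those labelled WT (SD, n = 3 each). The difference was 1.09 on the log2 scale (SE 0.08) with an adjusted p of 2.45e-06 by limma. The transcript was thus not reduced in the libraries labelled KO, and a gene total cannot tell if a floxed exon is missing. The table's columns are named Treatment and Control, which were read as KO and WT by name; a swap of the columns, which would turn every direction below, cannot be told apart from a true rise of Qk by the labels. Every direction is therefore that of the column names. Cx3cr1, from which the Cre is driven, was at 58308 ± 4848 in the libraries labelled KO and 246161 ± 11084 in those labelled WT (SD, n = 3 each), or -2.08 on the log2 scale. Microglial markers were at 744370.0 to 832771.0 in sum in the libraries labelled KO and 1472432.7 to 1507761.3 in those labelled WT, with 7 of 10 lower and 0 higher. The recovered depth was 61977830 to 75013004 reads per library labelled KO and 56988261 to 77199936 per library labelled WT. WT C stood apart within its group: it held the highest sums for neutrophil markers (15834.2, where WT A had 5087.7 and WT B 1753.6) and oligodendrocyte markers (23642.2, where they had 11047.1 and 8459.2). Counts and calls that change without WT C are given both ways.

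Of the 8 members, 4 were higher, 2 lower and 2 not past the threshold in the libraries labelled KO. In the whole table, 34.6% of 22472 tested genes passed, 11.3% higher and 23.4% lower, so a call alone does not set a member apart. Without WT C, 3 members were higher and 2 lower (28% of all tested genes called). With TMM (trimmed mean) factors 4 were higher and 1 lower (30.4% of all tested genes called), as with edgeR on the recovered reads (37.8% of all called) and with DESeq2 (23.3% of all called). With replicates as a block the members' counts were as in the first fit (41.7% of all called). The groups did not overlap for 6 of the 8, against 47.9% of all tested genes. The members had a median log2 fold change of 0.10, or 0.24 with TMM factors, where the table as a whole had -0.15 and -0.02. A small change is to be read against that shift. In what follows, values are normalised reads on the deposited scale unless stated, fold changes are ratios of group means, and log2 fold changes with SE and adjusted p come from limma on log2(value + 1).

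**Figure D1:**
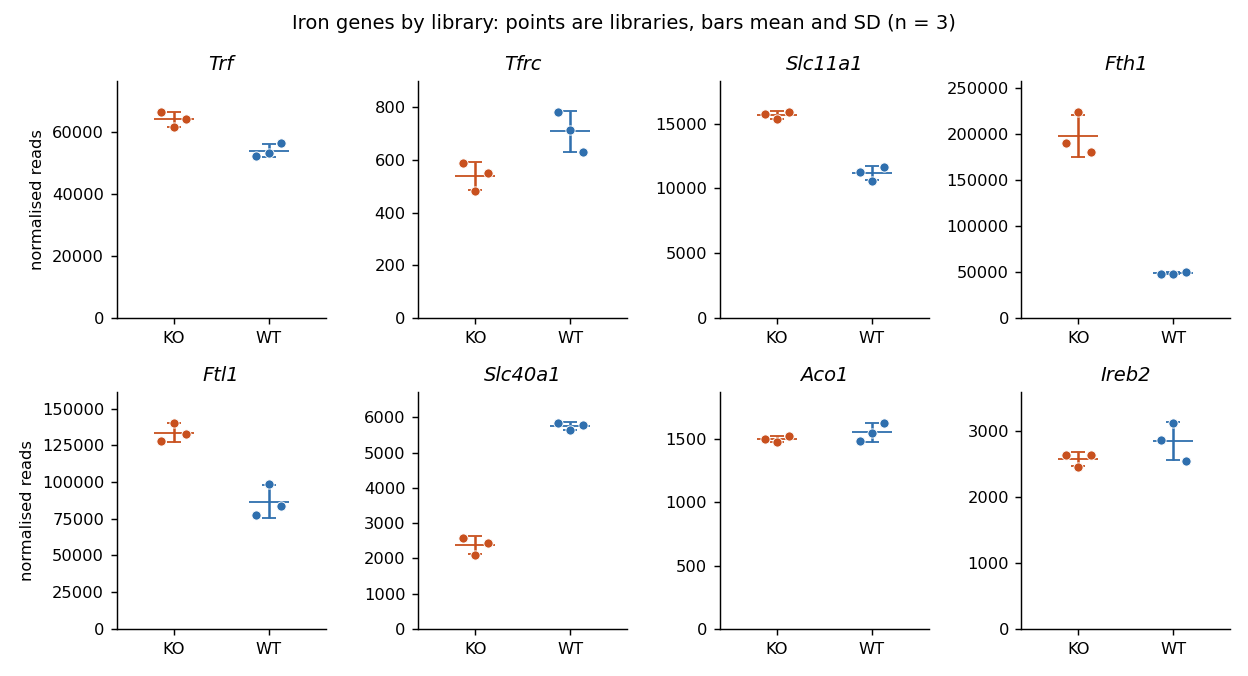
Normalised reads (y axes, starting at 0) of the 8 genes in each library labelled KO (left) and WT (right); points are libraries and bars give mean and SD. Fth1 stood at 180274 or more in each library labelled KO and at 50019 or less in each labelled WT, and for Aco1 and Ireb2 the groups overlapped.

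Transferrin, the carrier that brings iron to its receptor, was abundant: per kilobase of transcript it ranked below both ferritin chains and above the other members in both groups. Trf had 66401, 61635 and 64258 normalised reads in KO A, KO B and KO C, against 52152, 53223 and 56281 in WT A, WT B and WT C. Each library labelled KO lay above each labelled WT, and the spread within groups was small. The rise was 1.19-fold, 64098 ± 2387 against 53886 ± 2143 (SD, n = 3 each), or 0.25 on the log2 scale (SE 0.08) with an adjusted p of 0.0318. It was 0.39 with TMM factors (adjusted p = 0.00585), and the call was lost without any 1 of KO A, KO C, WT A, WT B or WT C (adjusted p = 0.077, 0.081, 0.0977, 0.0892 and 0.0514). The gene spans bases 103208795 to 103230444 of chromosome 9, minus strand (GRCm38).

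Outside the liver, Trf is best known from oligodendrocytes and the choroid plexus, so their markers were read beside it. Of 10 oligodendrocyte markers, 7 were lower and 0 higher, also without WT C, with sums of 5733.5 to 6580.7 in the libraries labelled KO and 8459.2 to 23642.2 in those labelled WT. In WT A, WT B and WT C the oligodendrocyte sum was 11047.1, 8459.2 and 23642.2, where Trf had 52152, 53223 and 56281. Of 6 choroid plexus markers, 2 were higher and 0 lower (1 and 0 without WT C), with sums of 1410.9 to 1665.9 in the libraries labelled KO and 924.9 to 1230.2 in those labelled WT. Of these Ttr, the transthyretin gene, accounted for most, with 1453 ± 120.01 against 990.0 ± 154 (SD, n = 3 each). No marker of either list was at 0 in a whole group. Cells of both types lack CD45, a protein used in the sort, yet RNA of their markers was present in both groups. The part of these cells in the Trf difference was not tested. In sorted bulk samples fewer cells of a type and less RNA per cell cannot be told apart.

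The transferrin receptor, which carries iron-loaded transferrin into the endosome, was the least abundant member. Tfrc had 587, 483 and 552 normalised reads in KO A, KO B and KO C, against 783, 714 and 629 in WT A, WT B and WT C. The groups did not overlap, but WT C lay closer to KO A than to WT A. Tfrc was 1.31-fold lower, 541 ± 53.1 against 708 ± 77.0 (SD, n = 3 each), or -0.39 on the log2 scale (SE 0.11) with an adjusted p of 0.0195. The call depended on the scaling: the value was -0.25 with TMM factors (adjusted p = 0.15) and -0.26 with edgeR on the recovered reads (adjusted p = 0.109). It was also lost without KO B, WT A or WT B (adjusted p = 0.0629, 0.0802 and 0.0537). In the authors' deposited table the log2 fold change of Tfrc is -0.25 with an adjusted p of 0.149. The gene spans bases 32608920 to 32632794 of chromosome 16, plus strand.

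Slc11a1, known as Nramp1, moves metal ions out of the phagosome and is a gene of macrophages and neutrophils. KO A, KO B and KO C had 15741.5, 15351 and 15899.85 normalised reads, and WT A, WT B and WT C had 11302, 10582 and 11693. The groups lay well apart, with little spread within either. Slc11a1 rose to 15664 ± 283, against 11192 ± 563 (SD, n = 3 each), by 0.49 on the log2 scale (SE 0.07, adjusted p = 0.000357), and by 0.63 with TMM factors. Of 10 neutrophil markers, 8 were lower and 0 higher (6 and 0 without WT C). Their sums were 60.5 to 114.4 in the libraries labelled KO and 1753.6 to 15834.2 in those labelled WT. Ly6g and Mmp8 were at 0 in all 3 libraries labelled KO, where a count of 0 leaves room for 1.37 to 1.66. In WT A, WT B and WT C Ly6g had 20.26, 3.56 and 42.81, and Mmp8 had 14.18, 0.89 and 66.93. The call of Mmp8 was lost without WT C (adjusted p = 0.052 by limma). Of 6 monocyte markers, 3 were lower and 0 higher, also without WT C, with sums of 226.7 to 354.1 against 467.3 to 1498.9. Of 7 markers of border-associated macrophages, which the sort could keep, 4 were higher and 0 lower (3 and 0 without WT C). Their sums were 2001.3 to 3411.1 in the libraries labelled KO and 1062.0 to 1561.0 in those labelled WT. Mrc1 accounted for most of each sum, at 2085 ± 635 against 967 ± 89.3 (SD, n = 3 each). Lyve1, Cbr2 and Ms4a7 were not called. The part of these cells in the Slc11a1 difference was not tested. Without WT C, where the neutrophil sum was highest, the log2 fold change of Slc11a1 was 0.52 (adjusted p = 0.00113). Its locus is chromosome 1, bases 74375203 to 74386052, plus strand.

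**Figure D2:**
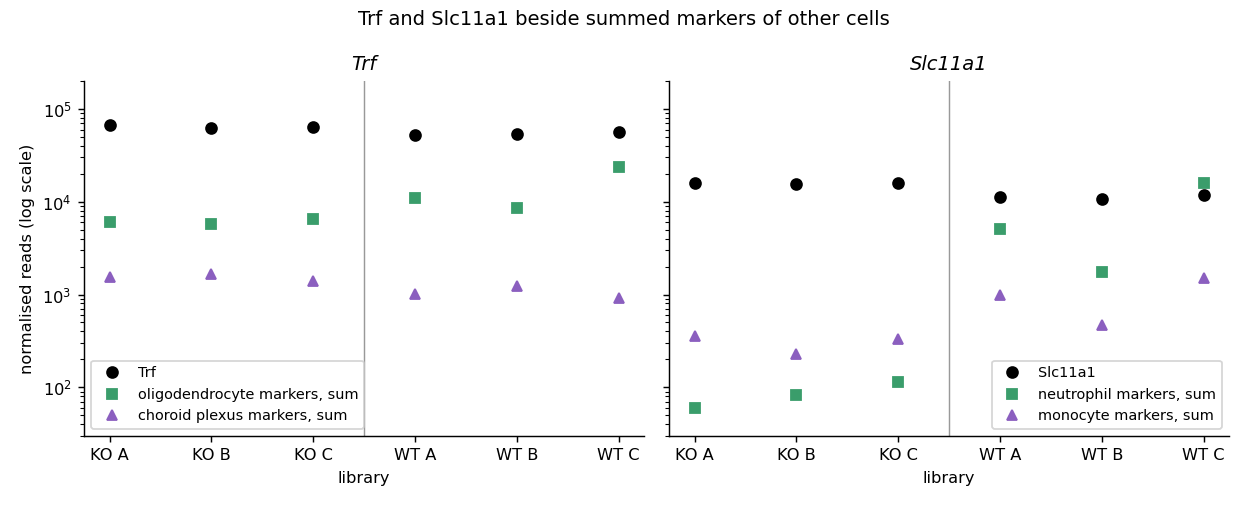
Normalised reads (log scale) of Trf and Slc11a1 in each library, beside the summed markers of oligodendrocytes and choroid plexus (left panel) and of neutrophils and monocytes (right panel); libraries labelled KO are left of the line. The neutrophil sum ran from 60.5 to 114.4 in the libraries labelled KO and from 1753.6 to 15834.2 in those labelled WT. Slc11a1 ran from 15351 to 15899.85 and from 10582 to 11693 in the same order. The part of these cells in the differences was not tested. Markers of border-associated macrophages are not shown.

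Ferritin is a hollow shell of heavy and light chains: the heavy chain oxidises iron as it enters, and the light chain helps it mineralise. Fth1, the heavy chain gene, showed the largest change of the 8 members. KO A, KO B and KO C held 190459.5, 223882 and 180274 normalised reads of it, against 48325, 47678 and 50019 in WT A, WT B and WT C. The lowest library labelled KO was thus far above the highest labelled WT, and KO B was the highest of all. Fth1 rose 4.07-fold, to 198205 ± 22813 against 48674 ± 1209 (SD, n = 3 each). The log2 fold change was 2.02 (SE 0.10, adjusted p = 2.82e-07), and 1.38% of tested genes had a higher one. Its locus is chromosome 19, bases 9982704 to 9985092, plus strand.

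Ftl1, the light chain gene, rose less. Its values were 127567, 140368 and 132980.35 in KO A, KO B and KO C, against 77688, 98873 and 83363 in WT A, WT B and WT C. The groups did not overlap, and WT B was the highest of its group. The rise was 1.54-fold, 133638 ± 6426 against 86641 ± 10967 (SD, n = 3 each), or 0.63 on the log2 scale (SE 0.11) with an adjusted p of 0.00114. Its locus is chromosome 7, bases 45457945 to 45459839, minus strand. The pair took 0.912% to 1.06% of all reads in the libraries labelled KO and 0.367% to 0.427% in those labelled WT.

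Ferritin genes have many near-identical copies in the genome, to which reads can be assigned in error. The table had 14 other rows with symbols that begin with Fth or Ftl. Of these, 9 were at 0 in all 6 libraries, all of them Fthl17 rows on chromosome X. Together the 14 held at most 0.15% of the reads of Fth1 and Ftl1 in any library. Copies under other symbols were not searched, so this share does not bound the reads assigned to all copies. The copy Ftl1-ps1 had 235, 297 and 245 in KO A, KO B and KO C, against 170.2, 182 and 168 in WT A, WT B and WT C. Fth-ps3 had 10.08, 14.97 and 16.87, against 0.51, 2.67 and 1.81 in the same order. In the libraries labelled WT it was near the floor of detection, where a count of 0 leaves room for 1.34 to 1.81. Both copies were higher in each library labelled KO than in any labelled WT, and whether they are reads of their own was not tested. For the other tested copies, Fth-ps2, Ftl1-ps2 and Ftl2-ps, the groups overlapped and no call was made (log2 fold changes of 0.23, -0.02 and 0.06). The labels do not state how reads that match several copies were counted, and all of these values are uncertain to that extent.

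Ferroportin is the only known iron exporter of mammalian cells, and its gene fell. Slc40a1 had 2591, 2086 and 2449 normalised reads in KO A, KO B and KO C, against 5848, 5642 and 5772 in WT A, WT B and WT C. The libraries labelled WT lay within a narrow range, and each was above every library labelled KO. Slc40a1 was 2.42-fold lower, 2375 ± 261 against 5754 ± 104 (SD, n = 3 each), or -1.28 on the log2 scale (SE 0.08) with an adjusted p of 1.82e-06. With TMM factors it was -1.14 (adjusted p = 7.64e-06). Of all tested genes, 7.78% had a lower log2 fold change. Its locus is chromosome 1, bases 45908068 to 45925582, minus strand.

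The iron regulatory proteins sense iron, Aco1 by losing an iron-sulfur cluster that makes it an aconitase and Ireb2 by escaping degradation. Aco1 had 1501, 1475 and 1523 normalised reads in KO A, KO B and KO C, against 1480.5, 1548 and 1629 in WT A, WT B and WT C. Ireb2 had 2639, 2447 and 2632, against 2862, 3124 and 2543 in the same order. For both genes the groups overlapped. The log2 fold change was -0.05 for Aco1 (SE 0.07, adjusted p = 0.638) and -0.14 for Ireb2 (SE 0.08, adjusted p = 0.233). With TMM factors the values were 0.09 and 0.00, so neither direction held across scalings. Aco1 lies on chromosome 4 at 40143081 to 40198338 and Ireb2 on chromosome 9 at 54863789 to 54912530, both on the plus strand.

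**Figure D3:**
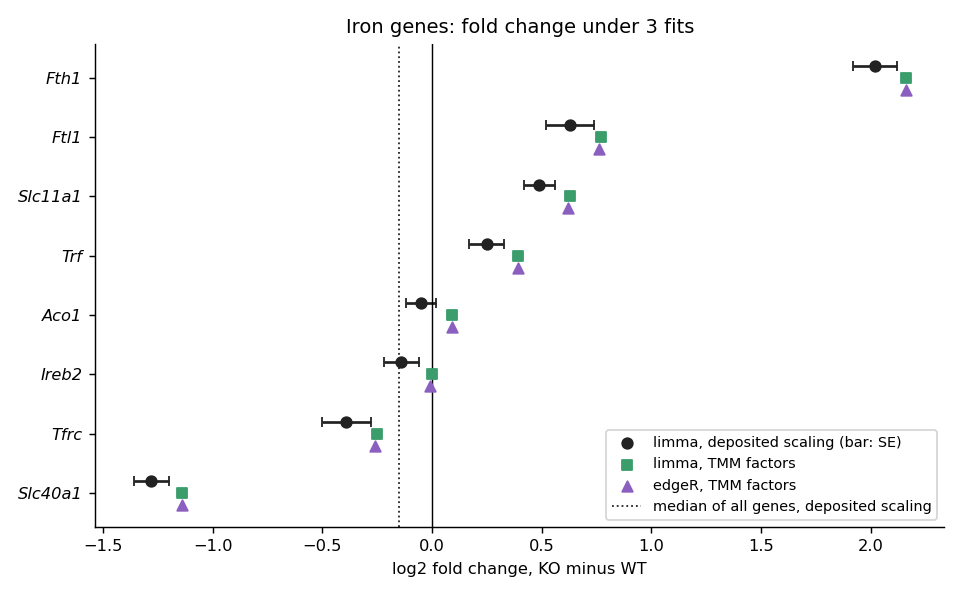
Log2 fold change (libraries labelled KO minus libraries labelled WT) of each member under limma with the deposited scaling (bars give SE), limma with TMM factors and edgeR with TMM factors; the dotted line marks the whole table's median, -0.15. Values ran from -1.28 for Slc40a1 to 2.02 for Fth1 with the deposited scaling, and both TMM fits lay to the right of it for all 8 genes.

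Ratios between members within a library do not depend on how libraries were scaled to each other. The ratio of Fth1 to Ftl1 was 1.493, 1.595 and 1.356 in KO A, KO B and KO C, against 0.622, 0.482 and 0.600 in WT A, WT B and WT C. Not corrected for length, it exceeded 1 in every library labelled KO and in no library labelled WT. The ratio was 2.62-fold higher in the libraries labelled KO, a difference of 1.39 on the log2 scale (SE 0.13). The ratio of Tfrc to Fth1, uptake against storage, was 0.00277 ± 0.000529 in the libraries labelled KO and 0.0146 ± 0.00184 in those labelled WT (SD, n = 3 each), 5.31-fold lower. Tfrc to Slc40a1, uptake against export, moved the other way, the exporter being lower by more than the receptor: it was 0.228 ± 0.00320 against 0.123 ± 0.0128, 1.86-fold higher. Slc40a1 to Slc11a1, the exporter against the phagosomal transporter, was 0.1515 ± 0.0145 against 0.515 ± 0.0199, 3.41-fold lower. These 4 ratios did not overlap between groups, and the exact two-sided permutation test gave p = 0.1 for each, the smallest that 3 against 3 libraries allow. Ireb2 to Aco1 overlapped, at 1.715 ± 0.0511 against 1.84 ± 0.243 (exact permutation p = 0.5). Over these 5 ratios no p could pass 0.05.

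**Figure D4:**
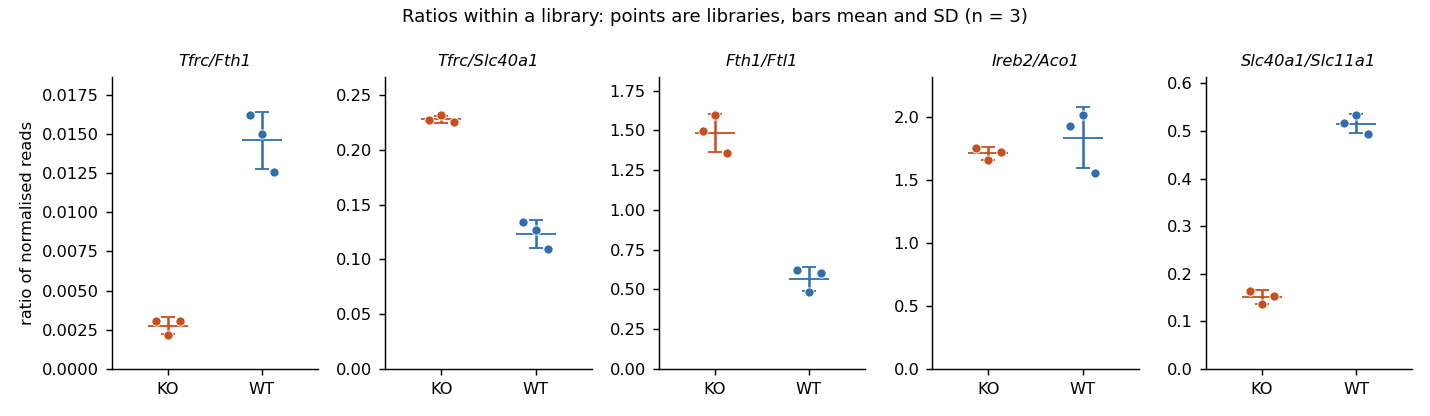
Ratio of normalised reads of 5 pairs of iron genes within each library, with libraries labelled KO on the left and WT on the right; y axes start at 0, points are libraries and bars give mean and SD. Fth1/Ftl1 lay between 1.356 and 1.595 in the libraries labelled KO and between 0.482 and 0.622 in those labelled WT.

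Levels were compared between genes per kilobase of the transcript the table names. In the libraries labelled KO the level per kilobase was 142776 ± 6866 for Ftl1, 96356 ± 11090.0 for Fth1, 25255 ± 941 for Trf, 6126 ± 111 for Slc11a1, 708 ± 77.6 for Slc40a1, 449 ± 19.1 for Ireb2, 396 ± 6.37 for Aco1 and 111 ± 10.9 for Tfrc (SD, n = 3 each). In those labelled WT it was 92566 ± 11716 for Ftl1, 23663 ± 588 for Fth1, 21231 ± 844 for Trf, 4377 ± 220.3 for Slc11a1, 1715 ± 31.1 for Slc40a1, 496 ± 50.8 for Ireb2, 409.5 ± 19.6 for Aco1 and 146 ± 15.9 for Tfrc. The order was the same in both groups, and no neighbours in it overlapped in either. Fth1 and Trf were closest in the libraries labelled WT, where the lowest Fth1 value was 23180.0 and the highest Trf value 22180.0. The place of Fth1 depends on the transcript: the table names one of 2057 bases that GENCODE M21 classes as a retained intron, and with the 929 bases of its first-numbered transcript the level was 213400.0 in the libraries labelled KO and 52390.0 in those labelled WT, against 138100.0 and 89510.0 for Ftl1 over the 968 bases of its own. The row of Slc11a1 names a retained-intron transcript too, and the labels do not state whether intronic reads were counted, which bears on the values of both genes.

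QKI binds RNA at ACTAA followed by C or T, so the letters ACTAAC and ACTAAT were counted on the transcript strand of the members. The first-numbered Slc40a1 transcript had 3 matches, all in the 3′ UTR, Aco1 had 1 in the 3′ UTR and Tfrc had 1 in the coding region. The other 5 transcripts had 0. Of tested genes with a named transcript within 20% of the length of that of Slc40a1, 49.3% had 1 match or more. The share with 3 or more was not counted. For Aco1 and Tfrc the shares with 1 or more were 53.4% and 60.8%. For the members with 0 they were 66.3% (Ireb2), 41.5% (Trf), 38.6% (Slc11a1), 18.7% (Ftl1) and 18.1% (Fth1). No match in the other members says only that these letters are not in those transcripts.

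The genes whose levels followed each member most closely over the 6 libraries were taken among 10152 tested genes above the median level (gene model names left out), as the 2 with the highest Pearson r of log2(value + 1). They were Kctd9 and Cacna1s for Fth1 (r = 0.9994 and 0.9988), Ddx46 and Zfp36 for Ftl1 (0.9974 and 0.9951), Dlg3 and Tstd3 for Slc40a1 (0.9992 and 0.9991) and Myl12b and Cdca7l for Slc11a1 (0.999 and 0.9981). For Trf they were Zdhhc3 and Sept6 (0.9964 and 0.9942), and for Tfrc Avl9 and Hpf1 (0.9983 and 0.9978). Txnip and Kansl1l followed Ireb2 (0.993 and 0.9892), and Vrk3 and Tti2 followed Aco1 (0.9815 and 0.9796). Genes that differ between the groups share that difference with each other: 2600 genes exceeded 0.9 for Slc40a1 and 1216 for Fth1, but 46 for Ireb2 and 73 for Aco1. The likeness is a description, and it was read from values that were scaled to nearly equal column sums.

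The wider iron pathway was read from 6 lists of 76 genes in all, of which 70 were tested. In the libraries labelled KO 9 were higher, 22 lower and 39 not past the threshold, with a median of -0.13 on the log2 scale (whole table -0.15). Of all tested genes 11.3% were higher and 23.4% lower, the background for each list below. With TMM factors the counts were 12 higher, 13 lower and 45 not past it, and the median was 0.02 (whole table -0.02). Without WT C, 8 were higher and 17 lower of 69 tested. Thus most of the excess of lower genes came and went with the scaling. Among the 31 called, 15 were also called with TMM factors and with each library left out in turn, 4 higher and 11 lower. This set was drawn from genes called with the deposited scaling. Genes called only with TMM factors could not enter it, so its split by direction depends on that scaling too.

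Of 12 genes of iron uptake and reduction, 11 were tested, 1 was higher and 4 were lower; with TMM factors, or with replicates as a block, 2 were higher, Slc22a17 having joined. Without WT C 1 was higher and 3 were lower of 10 tested. Lcn2, which encodes the siderophore-binding lipocalin 2, was 6.35 ± 3.17 normalised reads in the libraries labelled KO and 538 ± 535 in those labelled WT (SD, n = 3 each), which is -5.77 on the log2 scale (SE 0.61) with an adjusted p of 4.76e-05. Lcn2 is also a neutrophil granule gene. WT C alone held 1147, against 145 in WT B, and the log2 fold change was -4.97 without WT C. The part of neutrophils in the Lcn2 difference was not tested. The zinc and iron transporter gene Slc39a14 fell to 618 ± 61.3, against 862 ± 37.8, or -0.48 on the log2 scale (adjusted p = 0.00282). The ferric reductase genes Cybrd1 and Steap4 were low, with log2 fold changes of -1.79 and -1.77, and Steap4 lost its call without KO B, KO C, WT A or WT C. Slc11a2, the endosomal iron transporter DMT1 and the paralogue of Slc11a1, went against the list: it rose to 1376 ± 146, against 1117 ± 38.7, by 0.30 (adjusted p = 0.0251), a call lost without KO B, WT A or WT C.

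Storage beyond ferritin itself had 6 genes, 5 of them tested, with 1 higher and 1 lower. Ncoa4, the receptor that delivers ferritin to the lysosome for breakdown, fell 1.52-fold, to 1433 ± 229 against 2175 ± 112 (SD, n = 3 each), or -0.61 on the log2 scale (SE 0.11, adjusted p = 0.0018). Pcbp2, an RNA-binding protein that also hands iron to ferritin, rose to 8518 ± 408, against 6833 ± 158, by 0.32 (adjusted p = 0.00446). Its relative Pcbp1, at 7271 ± 38.7 against 7548 ± 122, did not pass (adjusted p = 0.54). Both calls held with TMM factors (-0.47 and 0.46).

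Export had 5 genes, 4 of them tested, with 1 higher and 1 lower (1 and 0 without WT C). Cp encodes ceruloplasmin, the ferroxidase that works beside ferroportin, and it rose while Slc40a1 fell. Cp had 1244 ± 81.6 normalised reads in the libraries labelled KO and 474 ± 44.6 in those labelled WT (SD, n = 3 each), 2.62-fold more, or 1.39 on the log2 scale (SE 0.09) with an adjusted p of 2.14e-06. Flvcr2 was near the floor of detection, at 3.18 ± 1.11 against 11.9 ± 5.38, and its call (-1.58, adjusted p = 0.0171) was lost without KO C or WT C. Heph, the membrane-bound relative of ceruloplasmin, was at 3.17 against 5.99 and did not pass.

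Among 10 regulators of iron balance 7 were tested, with 0 higher and 3 lower, and 1 higher and 3 lower without WT C. The gene that joined, Erfe (erythroferrone, a hormone that lowers hepcidin), was chosen after its values were seen: its log2 fold change was 1.03 (adjusted p = 0.176), and 1.56 without WT C (adjusted p = 0.0397). Hfe, an MHC class I-like protein that binds the transferrin receptor, fell almost as far as Slc40a1: it had 2340.2 ± 212 normalised reads, against 5527 ± 66.9 (SD, n = 3 each), or -1.24 on the log2 scale (SE 0.08) with an adjusted p of 1.29e-06. Neo1, a receptor of the hepcidin pathway, fell by 0.61 on the log2 scale (adjusted p = 0.0061). Epas1, an oxygen-regulated transcription factor abundant in endothelium, had a log2 fold change of -1.54 (adjusted p = 0.00686), and of -1.09 without WT C. Of 7 endothelial markers 5 were lower and 0 higher (4 and 0 without WT C). Their sums were 1039.3 to 1195.3 in the libraries labelled KO and 2247.3 to 3957.0 in those labelled WT. Pecam1 was the largest part of each sum, at 457 ± 47.5 against 1721.5 ± 264 (SD, n = 3 each). Kdr, at 366 ± 21.7 against 363 ± 77.5, and Flt1 were not called. Endothelial cells lack CD45, a protein used in the sort, yet RNA of the 7 markers was present in both groups. The part of these cells in the change of Epas1 was not tested. Hepcidin itself was scarcely detected: Hamp had 1.52 against 1.04 normalised reads and did not pass (adjusted p = 0.582), where a count of 0 leaves room for 1.34 to 1.81 in a library.

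Of 16 genes of heme handling, all tested, 1 was higher and 6 were lower, and with TMM factors 2 were higher and 2 lower. Without WT C, 0 were higher and 4 lower. The falls were small. Fech, which inserts iron into heme, fell to 1122 ± 23.5, against 1457 ± 69.9 (SD, n = 3 each), or -0.38 on the log2 scale (adjusted p = 0.00277), and Urod, an earlier enzyme of the same pathway, was at -0.41 (adjusted p = 0.00551). These 2 held with limma and TMM factors (-0.23 and -0.27). Hmox2, the constitutive heme oxygenase, at -0.35, and Uros, at -0.36, did not (adjusted p = 0.0565 and 0.0953). With edgeR on the recovered reads Hmox2 passed (adjusted p = 0.0339) and Uros did not (adjusted p = 0.0604). Hmox1, the inducible heme oxygenase that frees iron from heme, varied more within groups than between them, at 7201 ± 1813 against 8110.1 ± 2734 (log2 fold change -0.14, adjusted p = 0.707). Cd163, the haemoglobin scavenger receptor, was the exception, with 164 ± 39.3 against 80.4 ± 42.9 and a log2 fold change of 1.13 (adjusted p = 0.0293). Its groups overlapped, and the call was lost without KO A, KO C, WT B or WT C. Cd163 marks border-associated macrophages, whose marker counts, Cd163 included, are given beside Slc11a1.

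The largest list held 27 genes of mitochondrial iron and of iron-sulfur cluster assembly, all tested, with 5 higher and 7 lower (4 and 6 without WT C). Slc25a37 (mitoferrin 1, which imports iron into mitochondria) had the largest fall, 1.77-fold, to 4156 ± 366 normalised reads against 7356 ± 606 (SD, n = 3 each), or -0.82 on the log2 scale (SE 0.09, adjusted p = 4.9e-05). Its paralogue Slc25a28 did not pass (0.11, adjusted p = 0.54). Ciapin1 and Ciao1, of the cytosolic assembly machinery, had log2 fold changes of -0.53 and -0.34 (adjusted p = 0.00096 and 0.00544). Ciao1 did not pass with limma and TMM factors (adjusted p = 0.0719), but did with edgeR on the recovered reads (adjusted p = 0.0347). Among the 5 that rose were genes of proteins that act inside mitochondria, the chaperones Hspa9 (0.32) and Hscb (0.44), Fdxr (0.34) and Glrx5 (0.30). The call of Fdxr was lost without KO C or WT B, and that of Glrx5 without KO A, KO B, KO C, WT B or WT C. With TMM factors 6 genes were higher and 2 lower, these being Slc25a37 and Ciapin1.

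**Figure D5:**
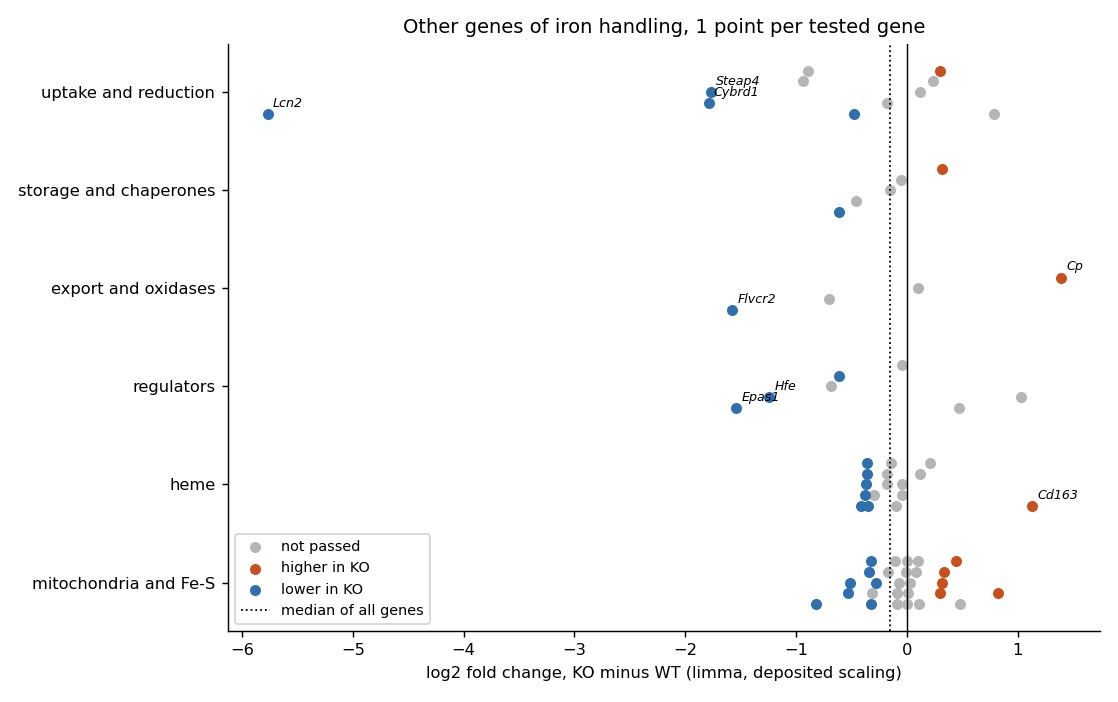
Log2 fold change (libraries labelled KO minus libraries labelled WT, limma, deposited scaling) of the 70 tested genes of 6 iron lists, 1 point a gene, coloured by call; the dotted line is the whole table's median, -0.15, and genes called with an absolute value above 1 are named. Cp, at 1.39, is the highest point and Lcn2, at -5.77, the lowest.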

How the data were processed

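Trimmomatic 0.39, STAR 2.7.1a, HOMER 4.11.1, DESeq2 1.26.0 and the build mm10/GRCm38 are named in the submitters' processing notes, without order or settings. Use of strand is not stated there, so reads of overlapping or antisense genes may be mixed. The authors deposited 1 normalised signal per gene and library, with column sums of 34360040 to 34360054, a transcript length per row, and their own log2 fold changes with p-values and adjusted p-values. Low values were whole multiples of 1 step per column (within a tolerance of 0.1 for 100% of values), which gave back the whole reads. The columns are named Control and Treatment, which were read as WT and KO; their letters A, B and C match no number in the labels. Of 55421 rows, 117 lower rows of repeated symbols were left out. Genes with a mean above 1 were tested with limma 3.58.1 (R 4.3.3, trend) on log2(value + 1), with Benjamini-Hochberg adjustment over all genes and a threshold of 0.05. edgeR 4.0.16 and DESeq2 1.42.0 on the recovered reads, other pseudocounts and filters, TMM factors, each library left out and a replicate block were alternatives. The fits were tested on simulated data. Libraries of a group differed by more than sampling noise (chi-square per gene 28.0 to 56.7). Over 11597 genes with a mean above 100, deviations from the group mean correlated at 0.61, 0.20 and 0.30 between same-lettered libraries. All were above 0.1, so the letters may pair the libraries, which rests on the letters and that check. Only the replicate block used the letters. The main fit, the other alternatives and the permutation tests treated the libraries as unpaired. Read intervals and floors cover counting error only. Members and lists were chosen with earlier results of these data known. From each list, up to 4 called genes with the smallest p and those called against the list's majority are named; other genes were named after their values were seen. Some genes that the rule names are not reported here.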

Additional observations from a re-analysis of the deposited data

How the results depend on the processing

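Fth1, Slc11a1 and Slc40a1 kept their direction and call under all 15 alternatives, at 1.93 to 2.17, 0.45 to 0.63 and -1.35 to -1.14 on the log2 scale. Ftl1 ran from 0.56 to 0.77 and lost its call with no filter (0.63, adjusted p = 0.0768). Tfrc lost it with no filter (-0.39), TMM factors (-0.25), edgeR with TMM or RLE factors (-0.26 and -0.25) and DESeq2 (-0.25), and ran from -0.47 to -0.31 with single libraries left out. Trf lost it with a pseudocount of 5 or no filter (0.25 each) and ran from 0.22 to 0.28 with single libraries left out. Aco1, never called, was 0.09 with TMM factors, edgeR (either factors) and DESeq2, and Ireb2 0.00 with TMM factors; with single libraries left out they ran from -0.08 to -0.01 and from -0.22 to -0.07. With no filter 3851 genes, 3 members and 14 genes of the iron lists (3 higher, 11 lower) were called; the cause was not tested. With single libraries left out 6213 to 6747 genes, 4 to 5 members and 21 to 29 list genes were called (5 to 8 higher, 16 to 22 lower). Lower list genes numbered 13 with TMM factors and DESeq2 and 14 with edgeR (either factors). The share of called genes that were higher was 32.5% with the deposited scaling and 50.7% with TMM factors, where 3462 were higher and 3368 lower. With the replicate block 9378 genes were called, 3012 higher and 6366 lower, and the block changed the call of no member. The order of levels kept 6 of 8 places without length scaling, and as many with the length of the first-numbered transcripts, which was chosen after seeing the data. The 5 ratios kept their direction with a pseudocount of 0.1 and with each library left out; scaling cannot change them. How reads that match several copies were counted is not stated, which limits Fth1 and Ftl1 most.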
